A study of Rattus norvegicus with 12 samples.

Results

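Rat liver 24 h after partial hepatectomy (PH) was compared between the library column named BA, for bile acid, and the Control column. The comparison asks what remained different from sham operated livers when taurocholate was infused into the duodenum, at the time of the first wave of DNA synthesis. The table lists 14692 genes, of which 8459 averaged 1 RPKM or more across its 12 columns and were compared. RPKM, the reads of a gene divided by the length of its transcript and by the mapped reads of the library, is a level per length. Every ratio is on the log2 scale after adding 1 RPKM to both columns, which understates the difference of genes with low levels. At least 2-fold higher in BA were 61 genes (0.721% of those compared) and at least 2-fold lower were 113 (1.34%), or 174 in all (2.06%).

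All animals were male Sprague Dawley rats 4 to 5 months old. Surgery was done 24 h before PH, and a duodenal catheter with a continuous saline infusion was carried by every rat, Control rats included. By the study's methods, Control rats had a sham fistula operation, BF rats a biliary fistula that drains bile out of the body, and fistula rats with replacement received sodium taurocholate, a conjugated bile acid, at 0.5 mg per g body weight per day from 12 h before PH. Different rats were used at each time. Each column is 1 averaged value of 2 sequencing runs, with RNA of 1 rat in one run and combined RNA of 3 rats in the other, so the 4 rats behind a value cannot be separated. No spread between rats, error or p-value can therefore be given for any value here.

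The labels of the group disagree. Sample titles and table columns use the name BA, but the longer descriptions of the BA samples speak of a fistula without returned bile and place the infusion in the BF samples. The study's methods use BF for the fistula alone. Groups are called here by their titles, and BF values are set beside the others for some genes and lists. CYP7A1, the rate-limiting enzyme of bile acid synthesis, stood at 68.8 RPKM in BA, 57.3 in Control and 334 in BF at 24 h. CYP8B1, which makes cholic acid, stood at 189.7, 171 and 1010 RPKM in that order. Both genes, which returning bile acids are known to repress, were thus near Control in the columns titled BA and highest in those titled BF, and these levels were not used to assign the names.

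The median gene was lower in BA than in Control by 0.17 (log2), and the quartiles were -0.31 and -0.02. The 10 most abundant genes took 36.7% of the RPKM sum in BA and 29.4% in Control. After rescaling both columns on the median gene, 86 genes were at least 2-fold higher and 72 lower, so that higher genes made up 54.4% of the calls instead of 35.1%. List medians are therefore given beside the value of -0.17 of all genes. Hepatocyte markers were at liver levels in both columns, with albumin (ALB) at 62342 RPKM in BA and 53967 in Control. In whole liver, fewer cells of a type and less RNA per cell cannot be told apart.

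Bile acids returning from the gut activate the nuclear receptor FXR (NR1H4), which induces the repressor SHP (NR0B2), and intestinal FXR sends FGF15 to the liver. Both routes lower CYP7A1 and CYP8B1 and so limit bile acid synthesis. PPARA is the nuclear receptor that induces the enzymes of fatty acid oxidation, SREBP2 drives cholesterol synthesis when sterols run low, and ATF4 is the transcription factor of the amino acid and endoplasmic reticulum stress response. In the rat remnant these metabolic programs run beside the cell cycle program that carries hepatocytes into S phase.

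The gene with the highest ratio was NPY, neuropeptide Y, at 152 RPKM in BA, 3.06 in Control and 3.10 in BF (log2 ratio of BA to Control 5.23). Its level in BA was 4.30 RPKM at 0 h, 14.03 at 4 h and 11.2 at 12 h, so the 24 h column stood apart from the other 11 columns of the table. RGD1304580, named Syne4 in RefSeq, followed at 15.1 RPKM in BA against 1.72 in Control, and BF was as high at 14.1 RPKM. COLQ, the collagen-like anchor of acetylcholinesterase, had 7.42 RPKM in BA and 0.65 in Control. CYP4B1, a fatty acid and xenobiotic hydroxylase, had 26.5 RPKM against 4.36, and PPTC7, a mitochondrial phosphatase, 32.5 against 7.67. CYP17A1, a steroid hydroxylase, had 16.9 RPKM against 3.66. At the other end, ADH6, an alcohol dehydrogenase, was almost absent in BA at 0.04 RPKM, against 19.4 in Control (-4.30), and BF was as low at 0.09 RPKM. Its values varied widely between times. At 0, 4 and 12 h ADH6 was at 7.85, 8.83 and 3.28 RPKM in BA and lower in Control, at 3.74, 4.62 and 0.44. In BF it was at 0.01, 12.6 and 0.15 RPKM at those times. BCMO1, which cleaves beta-carotene into retinal, had 1.13 RPKM in BA, 20.9 in Control and 12.9 in BF. PFKM, the muscle form of phosphofructokinase, had 1.26 RPKM in BA and 18.5 in Control. EPHX2, the soluble epoxide hydrolase, had 4.55 against 43.4 RPKM. UBD, the ubiquitin-like protein FAT10, had 0.01 against 6.49 RPKM. ALDH1B1, an aldehyde dehydrogenase of mitochondria, had 1.17 against 9.38 RPKM, and LOX, which cross-links collagen, 3.84 against 17.8. RPL30 was at 0.38 RPKM in BA and 21.0 in Control, but its values over the 12 columns ran from 0.18 to 42.2. In BA it was at 0.18, 0.44 and 34.6 RPKM at 0, 4 and 12 h, and in Control at 13.1, 0.35 and 0.87 RPKM. Ribosomal protein genes have near-identical copies, so RPL30, RPL17 (44.8 against 122) and RPS10 (5.98 against 21.7) are uncertain.

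**Figure D1:**
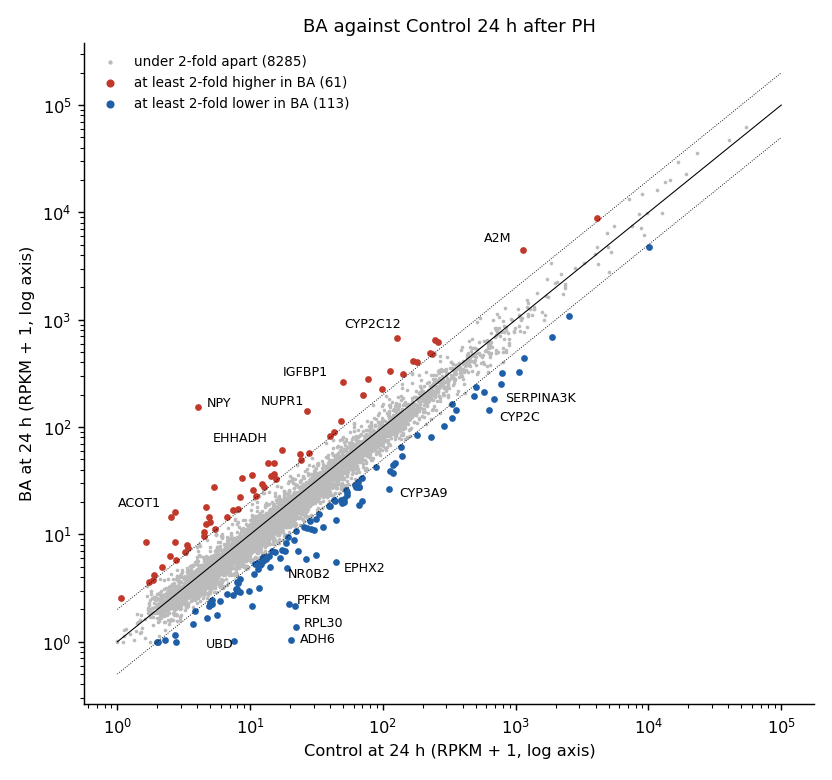
Level of each of the 8459 genes in Control (x axis) and BA (y axis) at 24 h after PH, as RPKM + 1 on log axes. Red points are the 61 genes at least 2-fold higher in BA, blue points the 113 at least 2-fold lower, the solid line marks equality and the dotted lines 2-fold. NPY lies farthest above the line and ADH6 and RPL30 farthest below it.

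At the threshold, the last genes counted were CYP4A10 (477 RPKM in BA and 234 in Control) and GIMAP4 (0.93 and 2.86, exactly 2-fold). Just outside lay SLC22A5, the carnitine transporter, at 20.2 and 9.70 RPKM, and SULT2AL1, a sulfotransferase, at 133 and 267 RPKM.

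Fatty acid oxidation was the only one of 26 gene lists with every member higher in BA. All 34 genes compared of the fatty acid oxidation and PPARA target list had a higher level in BA than in Control, 10 of them by at least 2-fold, and the list median was 0.52. ACOT1, an acyl-CoA thioesterase and PPARA target, had 13.5 RPKM in BA, 1.52 in Control and 2.71 in BF (2.52). EHHADH, the bifunctional enzyme of peroxisomal beta-oxidation, had 60.1 RPKM in BA, 16.5 in Control and 34.8 in BF (1.81). RGD1562373, the peroxisomal thiolase Acaa1b in RefSeq, had 34.6 RPKM in BA and 9.34 in Control (1.78). The pantetheinase VNN1 had 44.95 RPKM in BA, 12.6 in Control and 15.8 in BF (1.76). FGF21, a hormone of the fasted liver, had 13.6 RPKM in BA, 3.90 in Control and 3.37 in BF (1.57). CYP4A2, a fatty acid omega-hydroxylase, had 652 RPKM in BA, 248 in Control and 137 in BF (1.39). In BA these enzymes thus stood above both other columns. The BF column had a list median of 0.10 against the same Control column, with 1 gene at least 2-fold higher. The gate of mitochondrial import CPT1A was higher by less than 2-fold, at 183 RPKM in BA and 109 in Control (0.74), and the receptor PPARA itself was at 21.6 and 20.1 RPKM (0.09). Further enzymes of this pathway outside the list, picked after their values were seen, were CROT (197 RPKM in BA and 70.0 in Control), DCI (626 and 257), ECH1 (403 and 179), DECR1 (309 and 141) and ACOT4 (35.2 and 14.2).

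Cholesterol synthesis genes were higher as a group as well. Of 25 genes compared, 23 had a higher level in BA than in Control, 4 by at least 2-fold and none at least 2-fold lower, and the list median was 0.55. HMGCS1, which makes HMG-CoA, had 335 RPKM in BA, 112 in Control and 508 in BF (1.58). HSD17B7, an enzyme of the late pathway, had 28.7 RPKM in BA, 11.2 in Control and 35.7 in BF (1.28). SC4MOL, the methylsterol monooxygenase Msmo1 in RefSeq, had 224 RPKM in BA, 97.9 in Control and 318 in BF (1.19). IDI1, the isopentenyl diphosphate isomerase, had 88.6 RPKM in BA, 41.8 in Control and 152 in BF (1.07). For each of these 4 genes the BF column was the highest of the 3 columns. At 24 h the BF column had a list median of 1.13 against the same Control column.

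The promoters of these 4 genes are shown because all 4 were higher in BA and share a motif. Each line gives the 250 bases before the annotated start in RefSeq (GRCr8), 5′ to 3′ on the gene's strand, with every CCAAT or its reverse complement ATTGG in capitals. HMGCS1 lies at chr2:53382054-53382303 (+), HSD17B7 at chr13:84722755-84723004 (-), SC4MOL at chr16:29746863-29747112 (+) and IDI1 at chr17:66547525-66547774 (-).
HMGCS1: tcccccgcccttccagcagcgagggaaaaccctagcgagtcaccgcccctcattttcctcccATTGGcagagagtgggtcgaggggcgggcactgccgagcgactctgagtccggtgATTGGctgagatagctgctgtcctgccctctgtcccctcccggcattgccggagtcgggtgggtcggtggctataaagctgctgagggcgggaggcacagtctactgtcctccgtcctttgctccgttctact
HSD17B7: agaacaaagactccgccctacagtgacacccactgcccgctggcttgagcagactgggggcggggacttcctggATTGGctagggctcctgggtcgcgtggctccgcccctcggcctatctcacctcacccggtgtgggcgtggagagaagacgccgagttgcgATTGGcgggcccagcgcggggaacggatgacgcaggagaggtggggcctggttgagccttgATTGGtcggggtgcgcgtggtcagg
SC4MOL: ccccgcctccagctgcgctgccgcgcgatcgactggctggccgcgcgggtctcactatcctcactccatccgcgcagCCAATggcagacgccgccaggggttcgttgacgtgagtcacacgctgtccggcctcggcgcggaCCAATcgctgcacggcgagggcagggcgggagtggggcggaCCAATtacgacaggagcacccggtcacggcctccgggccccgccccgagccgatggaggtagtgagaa
IDI1: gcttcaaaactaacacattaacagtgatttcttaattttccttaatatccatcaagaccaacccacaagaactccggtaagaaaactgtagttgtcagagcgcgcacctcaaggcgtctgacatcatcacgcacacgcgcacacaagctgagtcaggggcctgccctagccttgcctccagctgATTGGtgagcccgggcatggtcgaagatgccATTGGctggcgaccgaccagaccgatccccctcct

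CCAAT, the letters bound by the factor NF-Y, was found on either strand in 14 of the 17 promoters matched for the cholesterol list (82.4%), in 34.3% of all 27457 promoters of the same length, and in 37.0% of the 6824 matched among the genes compared. Of the other lists searched, ER stress and ATF4 genes held CCAAT in 63.3% of 30 matched promoters. The shares were 36.7% of 30 for S phase genes and 33.3% of 27 for fatty acid oxidation. HMGCS1 and IDI1 each held 2 copies and HSD17B7 and SC4MOL each 3. The motif was picked after the values were seen. It was in 44.2% of the 43 promoters matched among the higher genes and in 49.4% of the 81 matched among the lower genes, so it did not separate the directions. A match describes letters in a window and not a bound site.

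The list of ER stress and ATF4 genes was mixed. Of 33 genes compared, 12 had a higher and 21 a lower level in BA, 5 were at least 2-fold higher and 1 lower, and the median was -0.13. NUPR1, a stress-induced chromatin protein, had 139.9 RPKM in BA, 25.7 in Control and 55.9 in BF (2.40). ASNS, asparagine synthetase, had 7.46 RPKM in BA, 1.71 in Control and 2.00 in BF (1.64). PSAT1 (13.5 RPKM in BA and 5.71 in Control) and PHGDH (21.7 and 10.04), both enzymes of serine synthesis, had ratios of 1.11 and 1.04. FGF21, counted here too, was described above. The chaperone HSPA5 (BiP) stood at 699.9 RPKM in BA and 766 in Control, and ATF4 itself at 133 and 109.5 RPKM. ATF3 was the member at least 2-fold lower, with 1.30 RPKM in BA and 3.98 in Control.

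FGF21 (chr1:105221377-105221626, -) and NUPR1 (chr1:190645902-190646151, -) are shown because their promoters hold the longer motif TGATGCAAT, known as the CCAAT-enhancer binding protein and ATF response element, here as its reverse complement ATTGCATCA in capitals. The windows are again the 250 bases before the start in RefSeq (GRCr8).
FGF21: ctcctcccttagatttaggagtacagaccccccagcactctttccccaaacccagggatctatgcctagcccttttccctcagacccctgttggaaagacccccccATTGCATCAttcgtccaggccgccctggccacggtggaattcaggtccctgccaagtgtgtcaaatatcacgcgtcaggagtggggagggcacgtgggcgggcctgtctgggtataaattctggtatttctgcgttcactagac
NUPR1: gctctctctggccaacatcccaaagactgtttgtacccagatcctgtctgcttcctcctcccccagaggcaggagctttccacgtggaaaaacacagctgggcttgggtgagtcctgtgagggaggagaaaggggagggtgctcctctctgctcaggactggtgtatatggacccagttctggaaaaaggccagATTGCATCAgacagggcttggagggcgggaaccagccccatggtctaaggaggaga

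TGATGCAAT on either strand was in 47 of all 27457 promoters (0.171%), in 13 of those of the genes compared (0.191%) and in 2 of the 43 matched among the higher genes, which are these. Its first base lies 144 bases before the start of FGF21 and 56 before that of NUPR1. None of the 81 promoters matched among the lower genes held it, which at a share of 0.191% says nothing about direction. This motif was also picked after the values were seen.

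Glucose output and the acute phase each had a few genes far apart. G6PC, glucose-6-phosphatase, had 276 RPKM in BA, 76.4 in Control and 232 in BF (1.84). IGFBP1, a binding protein of insulin-like growth factors that is high in fasting and injury, had 260.2 RPKM in BA, 49.2 in Control and 157 in BF (2.38). The remaining 24 of 26 gluconeogenesis and glycolysis genes were under 2-fold apart. Of 25 acute phase genes, 2 were at least 2-fold higher, 2 lower, and the median was 0.34. A2M, alpha-2-macroglobulin, the main acute phase protein of the rat, had 4421 RPKM in BA, 1142 in Control and 1272 in BF (1.95). SERPINA3N had 8869 RPKM in BA and 4125 in Control. The lower genes were SERPINA3K, a protease inhibitor of the same family (181 RPKM in BA, 689 in Control and 925 in BF), and HAMP, the iron hormone hepcidin (442, 1144 and 1435). STAT3, the transducer of interleukin-6, was at 106 RPKM in BA and 116 in Control (-0.14).

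Among genes that differ between male and female rat liver, male-type genes lay in both directions. CYP2C12, the female-type P450, had 671 RPKM in BA, 126 in Control and 224 in BF (2.40). CYP2C, the male-type CYP2C11 in RefSeq, had 143 RPKM in BA, 623 in Control and 92.6 in BF (-2.12). OBP3, a male-type urinary globulin, had 192 RPKM in BA, 485 in Control and 135 in BF (-1.33). LOC298116, an alpha-2u globulin seen outside the list, had 4802 RPKM in BA, 10005 in Control and 3882 in BF (-1.06). In the list of 33 growth hormone and sex dimorphic genes, 3 were at least 2-fold higher and 3 lower, with IGFBP1 and the male-type CYP4A2 (652 RPKM in BA and 248 in Control) on the higher side and IGFBP2 (1.23 RPKM in BA, 4.14 in Control) on the lower. The median was 0.06. Other sex dimorphic genes were under 2-fold apart, among them the male-type CYP3A2 (540 RPKM in BA and 467 in Control) and the growth hormone receptor GHR (159 and 147).

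Bile acid synthesis genes were nearly level between BA and Control. None of the 15 genes compared was 2-fold apart and the median was 0.03. CYP8B1, given above, had a BA ratio of 0.15 and a BF ratio of 2.55 against the same Control column. NR0B2 (SHP) was the only one of 23 sensing and transport genes that was 2-fold apart, with 5.38 RPKM in BA, 30.2 in Control and 10.4 in BF (-2.29). Its receptor NR1H4 (FXR) was at 42.8 RPKM in BA and 28.5 in Control (0.57). SLC10A1, the uptake transporter NTCP, was at 195 and 198 RPKM.

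Detoxifying enzymes were the list with the most genes at least 2-fold lower. Of 44 conjugation and NRF2 antioxidant genes, 7 were at least 2-fold lower and none higher, 34 had a lower level in BA, and the median was -0.40. NQO1, a quinone reductase induced by NRF2, had 36.1 RPKM in BA, 119 in Control and 81.6 in BF (-1.69). The glutathione transferases GSTM2 (143 in BA and 353 in Control), GSTM3 (2.12 and 6.93) and GSTM7 (14.4 and 31.9) were lower, as were the glucuronosyltransferase UGT2A3 (26.7 and 65.3), ALDH1A7 (3.77 and 10.4) and AKR7A3 (24.9 and 52.0). RGD1307603, the transferase Gstp3 in RefSeq, lay outside the list at 17.7 and 65.4 RPKM (-1.83). Of 28 cytochrome P450 genes of families 1 to 3, 4 were at least 2-fold lower and 1 higher, with a median of -0.37. CYP3A9 was at 25.2 RPKM in BA and 110 in Control (-2.08), CYP3A23/3A1 at 213 and 576, and CYP2C22 at 686 and 1868.

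Genes of amino acid and nitrogen metabolism were mostly lower too. Of 40 genes compared, 31 had a lower level in BA and 9 a higher one. At least 2-fold lower were 4, none was at least 2-fold higher, and the median was -0.33. PRODH, proline dehydrogenase, had 12.5 RPKM in BA and 43.1 in Control (-1.70). CTH, which makes cysteine from cystathionine, had 254 RPKM against 772 (-1.60). BHMT, which remethylates homocysteine, had 101 RPKM in BA, 289 in Control and 299 in BF (-1.51). ACMSD, of tryptophan breakdown, had 10.4 RPKM in BA, 25.9 in Control and 47.2 in BF (-1.24). For BHMT and ACMSD, then, BA was the lowest column and BF was at or above Control. In fatty acid synthesis, 3 of 22 genes were at least 2-fold lower, among them SCD1, the stearoyl-CoA desaturase (5.01 RPKM in BA and 15.9 in Control), and THRSP, a lipogenic regulator (82.6 and 181). The median of that list was 0.02. Of 15 clock genes, NR1D1 (4.96 RPKM in BA, 25.4 in Control and 2.56 in BF) and DBP (9.92, 29.3 and 3.10) were at least 2-fold lower. The hour of the day at which each group was killed was not given in the sources used here.

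Cell cycle genes were partly lower in BA. Of 37 S phase and nucleotide supply genes, 4 were at least 2-fold lower and none higher, with a median of -0.15, close to that of all genes. CCNE1, cyclin E1, had 10.1 RPKM in BA, 27.9 in Control and 10.98 in BF (-1.38). UHRF1, which copies DNA methylation onto new strands, had 7.87 RPKM in BA, 20.5 in Control and 9.27 in BF (-1.27). CHAF1B, a histone chaperone at the replication fork, had 4.35 RPKM in BA and 11.1 in Control (-1.18). RRM2, a subunit of ribonucleotide reductase, had 2.62 RPKM in BA, 6.99 in Control and 5.69 in BF (-1.14). PCNA, the sliding clamp of DNA polymerase, was almost level between BA and Control at 353 and 381 RPKM, with 75.2 RPKM in BF. Among the 17 cyclin, CDK and growth arrest genes, CCND1 (cyclin D1), which opens the way from G1 into S phase, was the only one 2-fold apart, with 19.1 RPKM in BA, 49.9 in Control and 17.2 in BF (-1.34). FOXM1, the driver of mitotic transcription, was at 7.93 RPKM in BA and 14.4 in Control (-0.79).

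Mitotic genes had the lowest median of the 26 lists, although only STMN1 (stathmin, 32.3 RPKM in BA and 67.9 in Control) passed 2-fold. Relative to the median gene its ratio was -0.88, under 2-fold. Of 53 G2/M genes, 44 had a lower level in BA, and the median was -0.54. The list fell into 2 sets with a gap between ratios of -0.46 and -0.20, a split seen only after the values were known. In the lower set of 35 genes the median was -0.65 in BA and -0.14 in BF, and in the upper set of 18 it was 0.00 in BA and -0.68 in BF, both against the same Control column. PBK, a mitotic kinase of the lower set, had 20.6 RPKM in BA, 42.2 in Control and 30.5 in BF. TOP2A, the topoisomerase of condensing chromosomes, had 39.1, 71.7 and 57.9 RPKM in that order. SPC25, a kinetochore protein of the upper set, had 60.1, 63.7 and 24.99 RPKM, and KIF23, a kinesin of cytokinesis, had 14.1, 13.0 and 4.34 RPKM. S phase genes were cut at -0.25 too, between ratios of -0.30 and -0.15. In both lists the cut was made on the BA ratio itself, so the BA medians follow from it. For the lower 17 S phase genes the medians were -0.85 in BA and -0.45 in BF. For the upper 20, PCNA, RFC4 and POLD1 among them, they were -0.02 in BA and -1.13 in BF. These example genes were chosen after their values were seen. The origin licensing list, which holds the MCM helicase, had no gene 2-fold apart of 19 and a median of -0.05 in BA.

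The 26 lists held 23 of the 61 higher and 38 of the 113 lower genes.

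**Figure D2:**
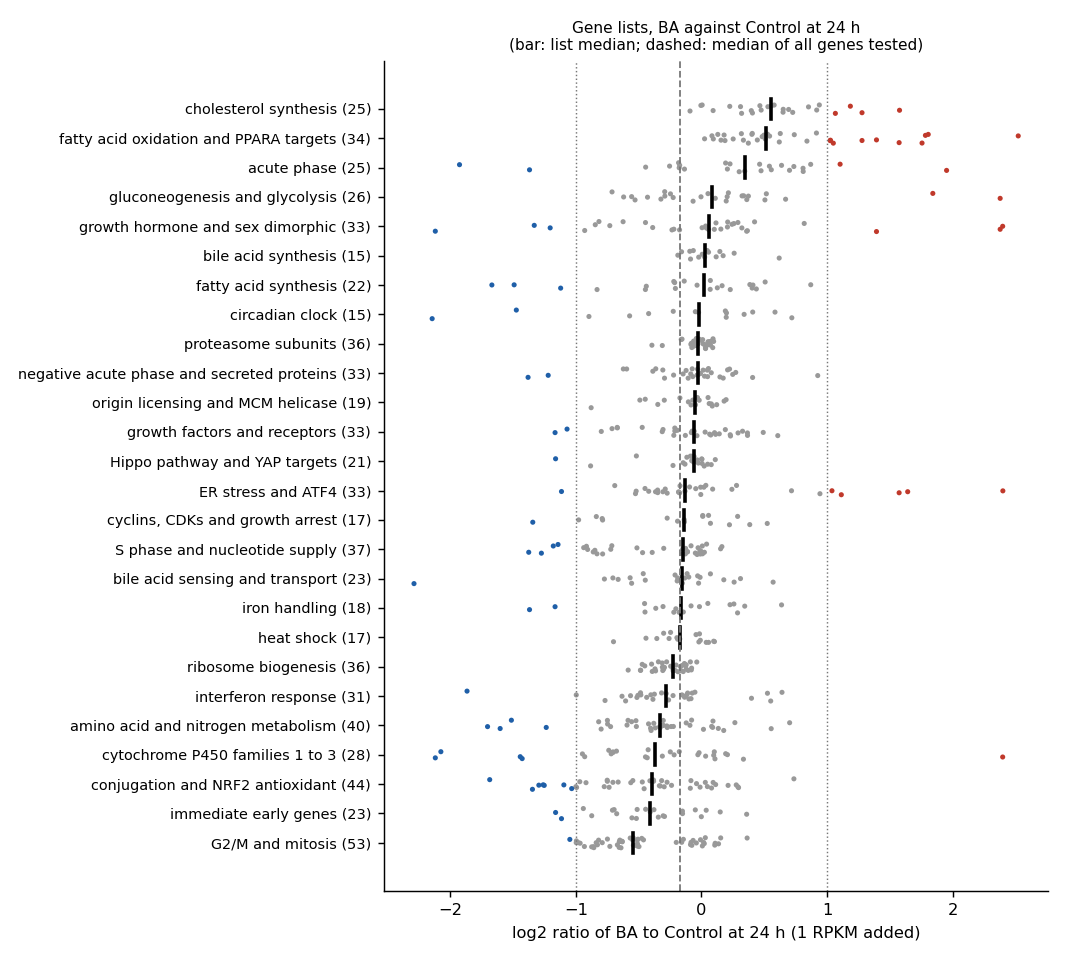
Log2 ratio of BA to Control at 24 h (1 RPKM added) for the genes of 26 lists, with the number of genes compared in brackets. Each point is 1 gene, red or blue where at least 2-fold apart, black bars are list medians, the dashed line is the median of all genes (-0.17) and dotted lines are 2-fold. Cholesterol synthesis and fatty acid oxidation lie to the right with medians of 0.55 and 0.52, and G2/M genes to the left at -0.54 in 2 clouds.

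Growth signals gave few genes, and CYR61, ATF3, ID1 and RGD1307119 below were under 2-fold apart relative to the median gene. Of 23 immediate early genes, CYR61 (4.91 RPKM in BA and 12.2 in Control) and ATF3 were at least 2-fold lower, while FOS (2.48 and 2.39) and JUN (31.3 and 31.4) were level. The list median was -0.41. CYR61 was also the gene 2-fold apart among 21 Hippo pathway and YAP target genes, and YAP1 itself was at 26.5 RPKM in BA and 26.1 in Control. Of 33 growth factor and receptor genes, ID1, a target of BMP signalling, was at 5.90 RPKM in BA and 14.5 in Control, and RGD1307119, the Wnt inhibitor Notum in RefSeq, at 12.4 and 27.2. Of 31 interferon response genes, CXCL9, a chemokine for T cells, was at 2.20 RPKM in BA and 10.7 in Control, and the median was -0.28. The lymphocyte marker list, which was not tested for a part in this, summed to 45.1 RPKM in BA, 75.4 in Control and 66.8 in BF. Most of that sum was CD74 at 32.0, 60.1 and 49.8 RPKM, which macrophages carry too. CD4 was higher in BA, at 9.32 RPKM against 8.61 in Control, and KLRB1F was at 0. All other lymphocyte markers found were lower in BA than in Control, at 1.24 RPKM or less in both. Among them were NKG7 (0.25 and 0.79) and GZMA (0.53 and 1.24). Of 18 iron handling genes, HAMP and ID1 were the lower ones. Among 33 secreted proteins, SERPINA6, the carrier of corticosteroids (52.5 and 138), and APOC1 (1081 and 2521) were lower. No gene was 2-fold apart among 36 proteasome subunits (median -0.03), 36 ribosome biogenesis genes (median -0.23) or 17 heat shock genes (median -0.17).

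Among 14 lists of markers of liver and other cell types, the genes at least 2-fold apart were FABP4, DCN and S100A8, all higher in BA. FABP4, a fatty acid carrier of adipocytes, macrophages and endothelium, had 45.1 RPKM in BA, 14.2 in Control and 12.7 in BF. The adipose list as a whole summed to 94.7 RPKM in BA, 66.1 in Control and 62.8 in BF, with ADIPOQ at 0.11 RPKM and LEP, RETN and UCP1 at 0 in BA. DCN, the matrix proteoglycan decorin, had 21.4 RPKM in BA, 7.37 in Control and 9.33 in BF, and the stellate and fibroblast list summed to 164, 157 and 157 RPKM. S100A8, carried by neutrophils and monocytes, had 26.6 RPKM in BA, 11.6 in Control and 17.6 in BF. The neutrophil list summed to 55.3, 28.2 and 36.9 RPKM, nearly all from S100A8 and S100A9, with LTF at 0 and MPO at 0.06 RPKM or less in the 3 columns. The part of such cells in the higher values was not tested.

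The genes chosen at 24 h were then read in the columns of earlier times, which entered the choice only through the 12-column mean of at least 1 RPKM and which come from other rats. Of the 61 higher genes, 20 were at least 2-fold higher in BA than in Control at 0 h (32.8%, against 1.87% of all genes), 18 at 4 h (29.5% against 2.02%) and 14 at 12 h (23.0% against 0.591%). At 4 h, however, 15 of the 61 (24.6%, against 5.26%) were at least 2-fold lower. Of the 113 lower genes, 49 were at least 2-fold lower at 0 h (43.4% against 2.15%), 48 at 4 h (42.5% against 5.26%) and 20 at 12 h (17.7% against 1.12%). Of the lower genes, 10 were at least 2-fold higher at 0 h (8.85% against 1.87%). At 4 h the count was 4 (3.54% against 2.02%) and at 12 h 5 (4.42% against 0.591%). Of the higher genes, 1 was lower at 0 h (1.64% against 2.15%) and 3 at 12 h (4.92% against 1.12%). At each earlier time the chosen genes were thus apart more often in the 24 h direction than in the opposite one, with both seen. Under 2-fold apart at all 3 earlier times were 14 of the higher and 29 of the lower genes. ACOT1, CYP17A1, CYP4B1 and ACAA2 were among those 14, and CYP3A9, GSTM3, RRM2 and STMN1 among the 29.

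Many of the lower genes were ones whose level differed over the first hours in other columns. Between 0 and 12 h, 56 of the 113 were at least 2-fold lower in Control (49.6%, against 9.95% of all genes) and 43 in BA (38.1% against 5.77%), with 8 higher in each (7.08%, against 3.96% and 1.29%). In BF between 0 and 24 h, 23 of them were lower (20.4% against 1.88%) and 34 higher (30.1% against 9.27%). Of the 61 higher genes, 20 were at least 2-fold higher and 15 lower at 12 h than at 0 h in Control, and 15 higher and 10 lower in BA. CYP2C and SERPINA3K were among the lower genes that were lower in Control at 12 h, at 6504 RPKM at 0 h and 1667 at 12 h for SERPINA3K.

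**Figure D3:**
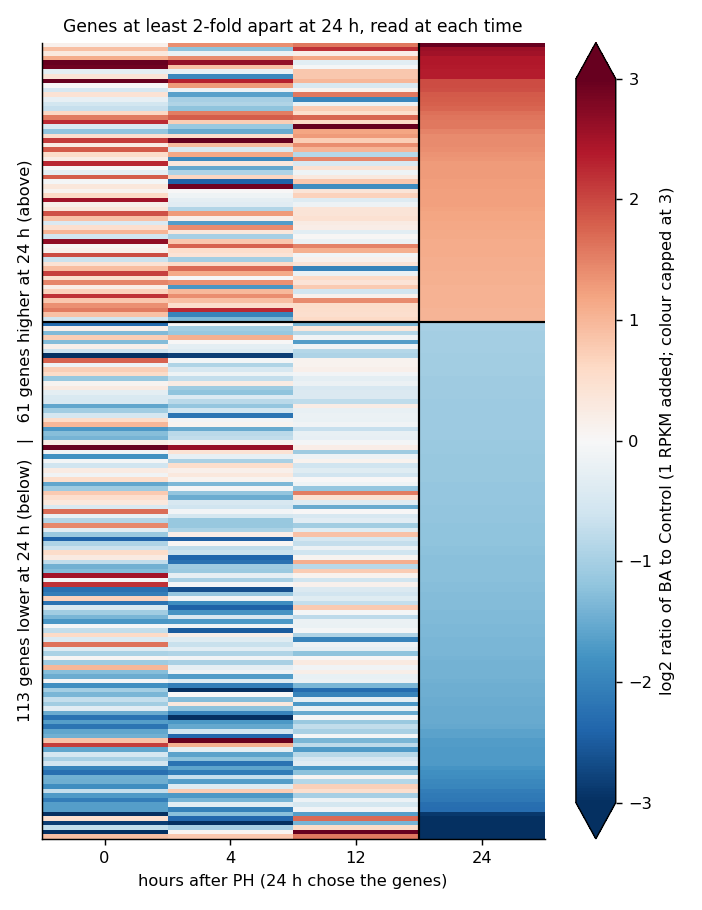
Log2 ratio of BA to Control (1 RPKM added, colour capped at 3) of the 174 genes at 0, 4, 12 and 24 h after PH. Each row is 1 gene, sorted by the 24 h ratio that chose it, red is higher in BA and blue lower. The lower block is mostly blue at 0 and 4 h and pale at 12 h, while the upper block holds both colours at 4 h.

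FABP4 and NUPR1 were at least 2-fold higher in BA at all 4 times. NUPR1 ran from 128 RPKM at 0 h to 179.9, 83.7 and 139.9 RPKM at 4, 12 and 24 h in BA, and from 58.9 to 67.1, 37.1 and 25.7 RPKM in Control. At all 4 times 8 genes were lower, among them BHMT, DBP, PFKM, UBD and BCKDHB, a subunit of branched-chain keto acid dehydrogenase (19.5 RPKM in BA and 68.5 in Control at 24 h). CYP2C (Cyp2c11) was lower at 24 h than at 0 h in all groups, at 926 and then 143 RPKM in BA and 2997 and then 623 in Control, with BA below Control at every time. CYP2C12 was at 463 RPKM in BA and 10.3 in Control at 0 h. At 4 h it was at 80.3 and 12.2 RPKM and at 12 h at 266 and 330.3 RPKM, so BA was above Control at every time except 12 h. A2M was at 1892 RPKM in BA and 7.61 in Control at 0 h, where 17 of 25 acute phase genes were at least 2-fold higher and the list median was 1.61.

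Fatty acid oxidation was below Control at 4 h and above it at 24 h. The list median was -0.30 at 0 h, -0.92 at 4 h with 16 of 34 genes at least 2-fold lower, 0.22 at 12 h and 0.52 at 24 h. PDK4, the kinase that spares glucose, was at 7.72 RPKM in BA and 167 in Control at 4 h. By 24 h the values were 30.2 and 22.5 RPKM. EHHADH was below Control at 4 h (29.6 and 60.2 RPKM) and 12 h (3.79 and 17.5) before the higher level at 24 h. Cholesterol synthesis went from 1.34 at 0 h, with 16 of 25 genes at least 2-fold higher, through 0.88 at 4 h and -0.03 at 12 h back to 0.55 at 24 h. HMGCS1 in BA was at 992 RPKM at 0 h and 335 at 24 h.

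**Figure D4:**
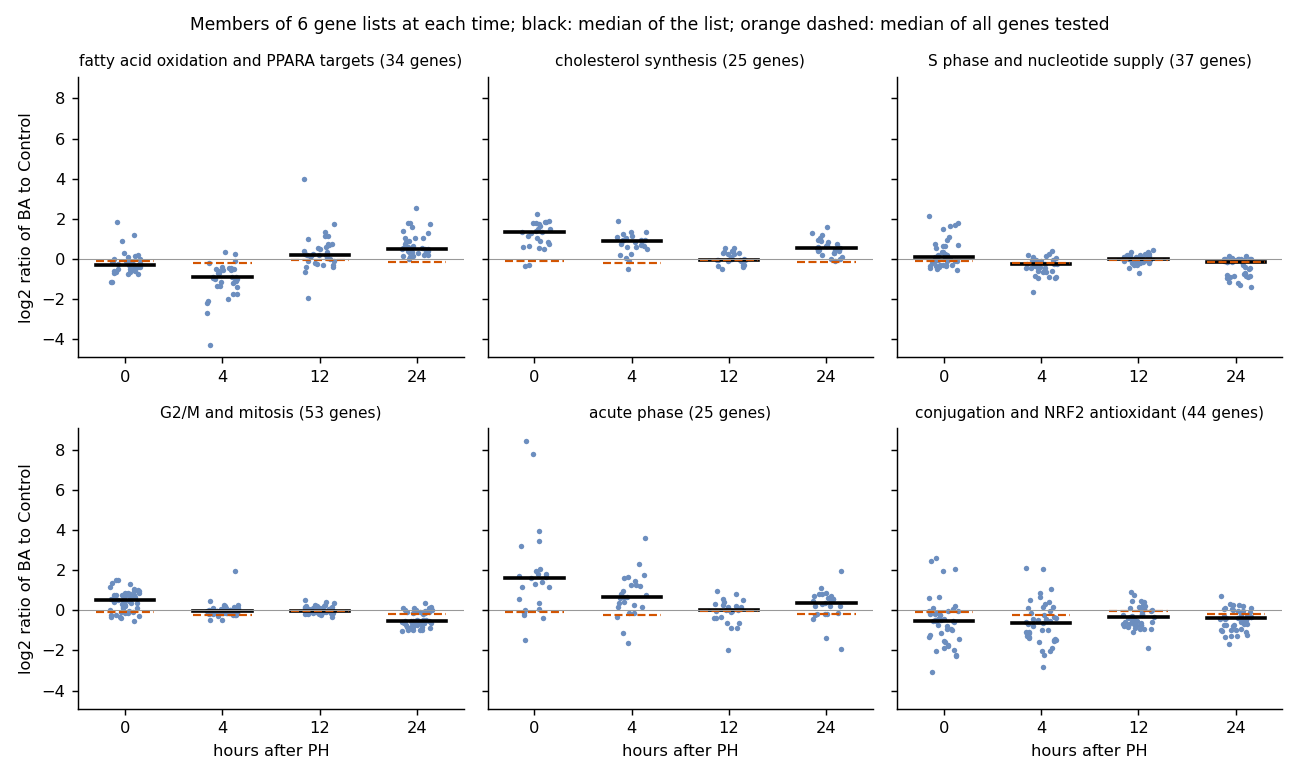
Log2 ratio of BA to Control (1 RPKM added) for the members of 6 gene lists at 0, 4, 12 and 24 h after PH. Points are genes, black bars list medians and orange dashed bars the median of all genes at that time. Fatty acid oxidation crosses from -0.92 at 4 h to 0.52 at 24 h, and G2/M genes from 0.53 at 0 h to -0.54 at 24 h.

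Mitotic genes as a list were higher in BA at 0 h and lower at 24 h, and a few S phase genes followed the same order. At 0 h, 7 of 53 G2/M genes were at least 2-fold higher in BA with a median of 0.53. That median was 0.71 in the lower set of 35 genes and 0.007 in the upper set of 18. Of 37 S phase genes 6 were at least 2-fold higher at 0 h, but the list median was 0.08, and in the upper set of 20 genes it was -0.23. UHRF1 was at 4.54 RPKM in BA, 0.24 in Control and 0.18 in BF at 0 h, against 7.87, 20.5 and 9.27 RPKM at 24 h. CCNE1 was at 5.66, 1.16 and 0.21 RPKM at 0 h. Levels at 0 h were low beside those of Control at 24 h, and both sets of G2/M genes were level between BA and Control at 12 h, with medians of 0.00 and -0.02. NR0B2 was at 0.36 RPKM in BA and 0.45 in Control at 12 h, and at 5.38 RPKM in BA and 30.2 in Control at 24 h.

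**Figure D5:**
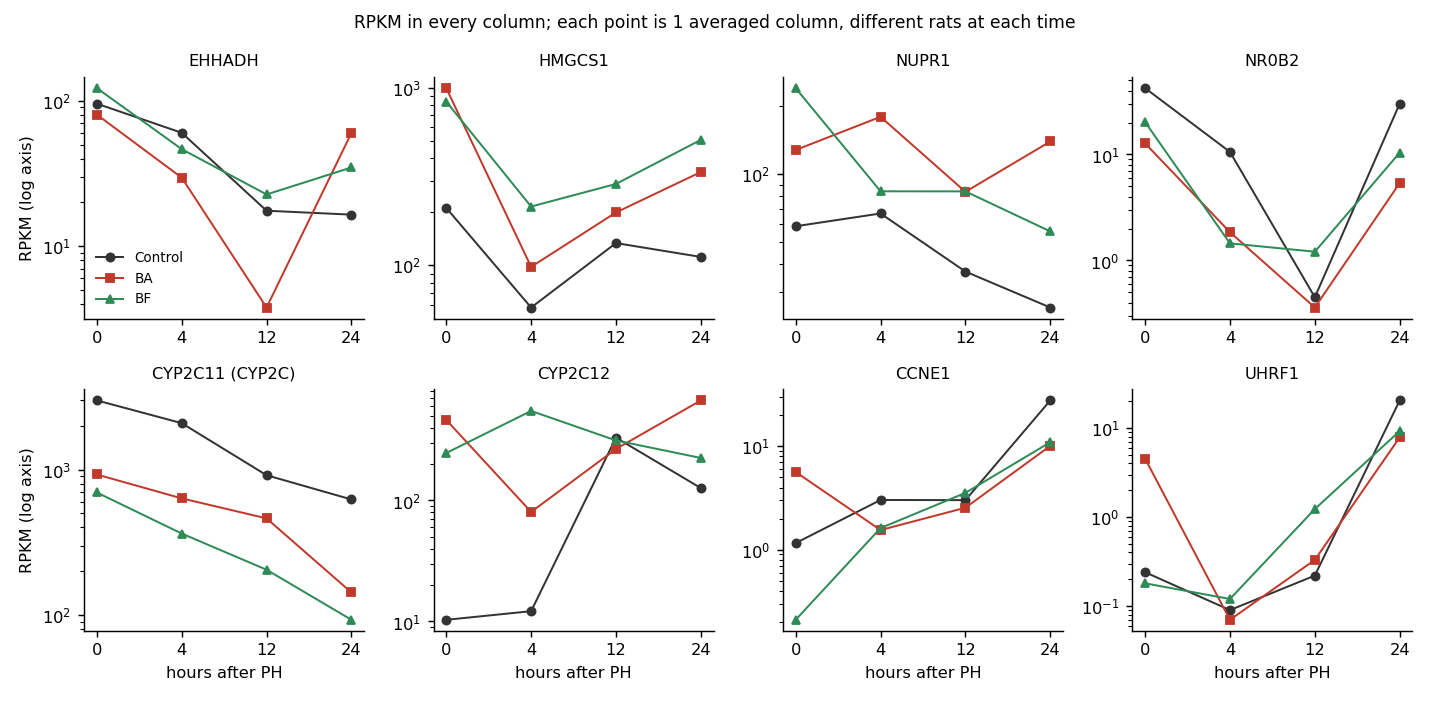
Level (RPKM, log axis) of 8 genes in the Control, BA and BF columns at 0, 4, 12 and 24 h after PH, 1 averaged column per point, with lines joining different rats. BA is above Control at every time for NUPR1 and HMGCS1 and below it at every time for CYP2C11 and NR0B2, while EHHADH and CCNE1 cross.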

How the data were processed

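RNA of rat liver was sequenced by the authors as poly(A) libraries in single reads of 50 cycles and deposited as a single table of RPKM, where 2 runs are averaged into every column. The submitters' processing notes name CASAVA, Bowtie 0.12.2 and the builds mm8 and rn4 without their roles. The annotation, the counting and the weights of the runs are not given in the sources used here. Read totals are not known, so no interval can be given. RPKM divides by the library total, so a few abundant genes lower the rest.

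Computed here were log2 ratios after adding 1 RPKM, over genes with a 12-column mean of at least 1 RPKM (Python 3.11.15, numpy 2.4.6, pandas 2.3.3). Members and gene lists were chosen with earlier results of these data known. Named are the 15 highest and 15 lowest genes, up to 6 members at least 2-fold apart per list, and CYP7A1, CYP8B1, NR1H4, NR0B2, PCNA, FOXM1, CCND1, STAT3, FOS, JUN and YAP1. Other genes were chosen after their values were seen, and some genes the rule selects are not reported here. Older symbols and promoters came from RefSeq (GRCr8), whose coordinates are not those of the table. The code of the calls was run on simulated columns with 200 changed genes, which does not mimic the variation between rats. With 1 column per group no test was run. The 8 alternatives were other added values, filters and scalings, and exchanged group names.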

Additional observations from a re-analysis of the deposited data

Results flagged for a closer look

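Named genes are listed here when they were at least 2-fold apart in the opposite direction at an earlier time. The difference between times was not tested, since each time is 1 averaged column of other rats. Of the genes higher in BA at 24 h, RGD1304580 had a log2 ratio of BA to Control of -1.22 at 4 h, COLQ of -1.92, G6PC of -1.62, VNN1 of -1.20 and FGF21 of -1.11, and EHHADH of -1.0002 at 4 h and -1.95 at 12 h. COLQ was low in both columns at 4 h, at 0.07 RPKM in BA and 3.06 in Control.

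Of the genes lower in BA at 24 h, ADH6 had a log2 ratio of 1.57, EPHX2 of 1.70 and RPL30 of 4.25 at 12 h. At 0 h the ratio was 1.62 for CCNE1, 2.16 for UHRF1, 1.67 for CHAF1B and 2.07 for NQO1, and NQO1 was at 1.06 at 4 h. NQO1 had 65.4 RPKM in BA and 14.8 in Control at 0 h, against 36.1 and 119 at 24 h.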

How the results depend on the processing

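No paired analysis was possible because the titles carry no replicate numbers and each group is 1 averaged column per time. For the same reason no replicate could be left out. With 0.1 RPKM added in place of 1, 175 genes were at least 2-fold lower, and with 5 RPKM added 57 were lower and 36 higher. After rescaling on the median gene 72 genes were lower, all of them among the 113. Of 83 named genes, none reversed under the 7 alternatives that keep the group names. But 17 came under 2-fold with 5 RPKM added, 8 on the median gene, 1 on column sums and 3 on sums without the most abundant genes. At a minimum of 5 RPKM, 71 of the 83 were compared. With the median ratio of all genes subtracted, STMN1 came to -0.88, RRM2 to -0.97, CYR61 to -0.99 and ATF3 to -0.95. ID1 came to -0.9985, RGD1307119 to -0.90, THRSP to -0.95 and GSTM7 to -0.93. Among them were all the genes called in the G2/M, immediate early, Hippo and growth factor lists. With the names BA and BF exchanged, 65 genes were higher, 111 were lower, which does not say that they are the same genes: 36 named genes came under 2-fold. The list medians were -1.0035 for origin licensing and -0.92 for S phase. They were 0.10 for fatty acid oxidation, -0.003 for conjugation and NRF2 antioxidant genes and 0.13 for amino acid and nitrogen metabolism. The log2 ratio then reversed for RPL30 (0.98), UBD (0.85), SERPINA3K (0.42), FGF21 (-0.17), CYP4A2 (-0.85), HAMP (0.33), GSTM7 (0.33), BHMT (0.051), ACMSD (0.84), PSAT1 (-0.19), PHGDH (-0.48) and FABP4 (-0.15). Counts of the 174 genes at earlier times were also taken after rescaling on the median gene, an alternative chosen after seeing the data. Of the higher genes 20, 24 and 15 were then at least 2-fold higher at 0, 4 and 12 h (32.8%, 39.3% and 24.6%). The shares of all genes were 2.12%, 3.24% and 0.721%. At least 2-fold lower were 1, 11 and 3 of the 61. Of the lower genes 43, 36 and 18 were lower (38.1%, 31.9% and 15.9%), against 1.82%, 3.14% and 0.993% of all genes. In the opposite direction, 10, 6 and 5 of the 113 were higher.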

Other observations

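Outside the lists, the lower genes held carboxylesterases, proteins that hepatocytes secrete and some others, all chosen after their values were seen. ES1, a carboxylesterase, had 321 RPKM in BA, 787 in Control and 350.0 in BF. LOC100125372, carboxylesterase ES-4, had 37.7, 111 and 45.7 RPKM in that order, CES2 20.5, 49.9 and 33.9, and CES6 17.4, 38.5 and 39.5. CAR3, a carbonic anhydrase of male liver, had 322, 1054 and 385 RPKM. LIPC, hepatic lipase, had 63.6, 136 and 95.8 RPKM, and AFM, the vitamin E carrier afamin, 236, 505 and 338. METTL7B was at 120, 332 and 176 RPKM and lower in BA than in Control at all 4 times. KRT8, a keratin of hepatocytes and bile ducts, was at 165, 332 and 272 RPKM.

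Some genes of the intestine were at or near 0 in BA at 24 h. The Paneth cell defensins DEFA24 and DEFA9 and ZG16, a goblet cell lectin, were listed at 0 in BA, at 1.0, 1.02 and 1.78 RPKM in Control and at 8.89, 5.83 and 8.05 RPKM in BF. At 4 h these genes were at 0 in Control, BA and BF alike. In BA they were at 0.62, 1.16 and 1.64 RPKM at 0 h and at 2.84, 1.0 and 1.53 at 12 h. In BF they were at 0.09, 0.13 and 0.06 RPKM at 0 h. CLCA4, an intestinal chloride channel regulator, was at 0.03, 1.29 and 9.0 RPKM. The intestinal marker list summed to 243 RPKM in BA, 272 in Control and 345 in BF, mostly from APOA4 (185, 205 and 266), which hepatocytes also make, with FGF15 at 0 in all 3 columns. The part of intestinal cells in these values was not tested. Other genes higher in BA were GUCY2C, a receptor of gut peptides (11.4 RPKM in BA and 3.66 in Control), SLC13A5, the citrate transporter (55.0 and 22.9), CSAD, which makes taurine (112 and 47.5), and the macrophage growth factor IL34 (8.70 and 3.49).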
